A study of Mus musculus with 12 samples.

Results

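Naive CD8+ T cells carrying a homozygous Ikaros-Zn4-/- mutation and wild-type (WT) cells were compared for how far their transcripts moved between 12 h and 24 h of stimulation through the T cell receptor. The value followed here is, for each gene, the 24 h minus 12 h change in Ikaros-Zn4-/- cells (Zn4-/- below) minus the same change in WT cells, on the log2(RPKM + 1) scale. RPKM is a read count scaled to transcript length and to the depth of the library. It rests on 8 of the 12 libraries of the study: 2 WT and 2 Zn4-/- libraries at 12 h, and 2 WT and 2 Zn4-/- libraries at 24 h. The other 4 libraries are unstimulated cells, which entered the fit for its estimate of the spread. A positive value says that a gene gained more, or lost less, in Zn4-/- cells than in WT cells over those 12 h.

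Cells of both genotypes came from spleens of C57Bl/6 mice aged 6 weeks. They were enriched by negative selection, sorted as CD8+ CD62L-high CD44-low or negative cells, and cultured on plates coated with antibodies to CD3 and CD28. The mutation is in the germline of the mutant mice, so their T cells had also developed with it. The labels do not say whether the 2 libraries of a group came from separate mice, and p-values then measure only the spread between these libraries, which may be technical. RNA from total-RNA extracts was made into stranded mRNA libraries and sequenced from one end.

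Ikaros, the product of Ikzf1, is a zinc-finger DNA-binding protein of lymphocytes, and the Zn4 mutation removes the fourth of its DNA-binding fingers. Engagement of CD3 and CD28 takes a resting CD8+ T cell out of quiescence. Cytokine and immediate-early genes come on within hours, growth and metabolism follow, and the first division comes after about a day, while adhesion and cytoskeletal genes are rebuilt as the cell enlarges and gains effector functions. Transcripts of Ikzf1 were listed at 128 and 125 RPKM in WT and 114 and 124 in Zn4-/- cells at 12 h, and at 115 and 117 against 136 and 139 at 24 h, a difference in change of 0.33 that was not called. A level summed over the whole gene does not show whether the part encoding 1 finger is missing, so it checks neither genotype label.

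The libraries held between 24263907 and 33389808 reads over the 12 h and 24 h groups, as worked out from the RPKM steps, and 3 reads in a transcript of 2 kb corresponded to 0.0449 to 0.0618 RPKM. Replicates correlated at 0.986 to 0.995 across genes, and the SD of their log2 difference was smallest in WT at 24 h (0.173) and largest in Zn4-/- at 24 h (0.301). All 12 T cell identity genes were present, and their summed level was 3508 to 3842 RPKM in WT and 2795 to 3222 RPKM in Zn4-/-. At 12 h 6 were called lower and 2, Cd247 and Thy1, higher in Zn4-/-, against 8.28% and 4.85% of all genes tested. The same counts were called at 24 h, against 9.96% and 9.4%. Over the 19 alternative settings the lower count ranged from 2 to 6 at 12 h and from 3 to 8 at 24 h. Of markers of other cells, 5 of 17 for B cells and class II were in the table (sums of 139 to 266 RPKM in WT and 84.2 to 189 in Zn4-/-), 2 of 22 for myeloid cells (2.55 to 6.3 RPKM over all 8 libraries), 5 of 14 for natural killer and gamma-delta T cells (2.18 to 6.3 RPKM) and 1 of 12 for erythroid cells and platelets (0.287 to 0.561 RPKM). For stromal and endothelial cells 4 of 21 were in the table, and their sum was 9.36 to 10.8 RPKM in the other groups and lower, at 5.22 and 6.81 RPKM, in Zn4-/- cells at 24 h. Their members differed: Pecam1 was at 1.52 and 2.2 RPKM in Zn4-/- against 6.73 and 6.49 in WT at 24 h. Krt18 was called higher in Zn4-/- at 12 h (1.45) and 24 h (0.78), and Tagln and Epcam were called at neither time. Of 6 markers of CD4 and regulatory T cells 4 were in the table: Cd4 was at most 0.288 RPKM, and nearly all of their sum was Il2ra, a receptor gene that activation also raises in CD8+ T cells, at 96.4 to 109 RPKM in WT, 146 and 148 in Zn4-/- at 12 h and 214 and 174 in Zn4-/- at 24 h. The part of these markers in the results was not tested. In RNA from bulk samples, fewer cells of a type and less RNA per cell cannot be told apart.

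All samples carry the label female, but 3 libraries of 12 h held Y-linked transcripts: the summed level of 4 Y-linked genes was 38.9 RPKM in WT replicate 1, 43.4 in Zn4-/- replicate 1 and 21 in Zn4-/- replicate 2. It was at most 0.00272 RPKM in the other 5. Xist was at 0.0023 and 0.0258 RPKM in the first 2 of these and at 24.3 RPKM in the third, against 52.6 to 82.7 RPKM elsewhere. Every 24 h library and 1 WT library of 12 h were thus without Y-linked transcripts, whereas both Zn4-/- libraries of 12 h had them. Within Zn4-/-, time and the presence of these transcripts cannot be told apart.

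The genotypes differed widely at each time and more rarely in the path between the times. Of 12726 genes tested, 1671 (13.1%) were called at 12 h, 617 higher and 1054 lower in Zn4-/-. At 24 h 2464 (19.4%) were called, 1196 higher and 1268 lower. The 12 to 24 h change itself was called different for 100 genes (0.786%; limma, Benjamini-Hochberg adjusted p under 0.05), of which 83 (0.652% of genes tested) had the higher change in Zn4-/- and 17 (0.134%) the lower. Of the 100, 74 differed by 1 log2 unit or more, and the median over all genes tested was 0.00. An unadjusted p under 0.05 was reached by 1505 genes.

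Sorted by when the genotypes differed, 41 of the 100 genes had a difference that opened, meaning that it was called at 24 h alone. In 18 a difference already called at 12 h grew, in 7 it shrank, in 20 it closed, meaning that it was called at 12 h alone, and in 14 it reversed. Rises in Zn4-/- made up most of the positive group: among the 83 genes, 49 rose in Zn4-/- without a called change in WT, 23 rose in both genotypes, 5 rose in Zn4-/- and fell in WT, and 5 fell in WT alone. The remaining gene fell in both. Among the 17 genes with the lower change in Zn4-/-, 6 rose in WT and fell in Zn4-/-, 5 rose in WT alone, 4 fell in Zn4-/- alone, 1 rose in both and 1 fell in both.

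Being called at 1 time alone was far commoner than a called difference in change. Of 1372 genes called between genotypes at 24 h alone, 41 had a called difference in change, and of 579 called at 12 h alone, 20 had one. For the rest, opening or closing was not shown.

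**Figure D1:**
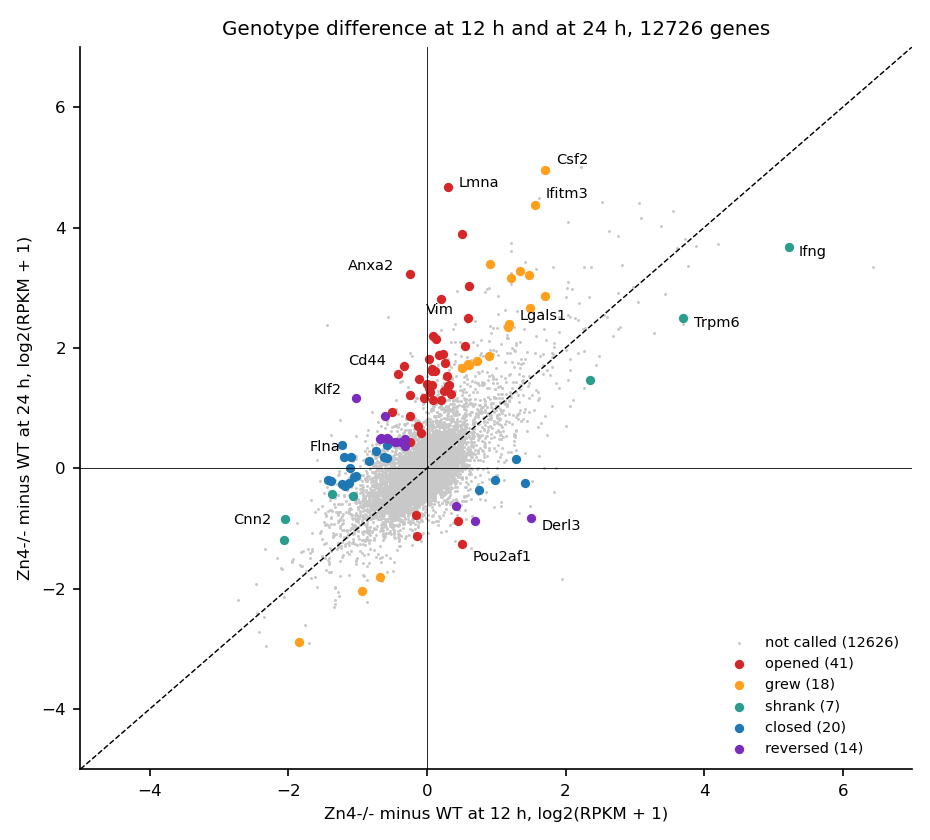
Each point is 1 of 12726 genes, placed by its Zn4-/- minus WT difference at 12 h (x axis) and at 24 h (y axis), both on the log2(RPKM + 1) scale. The 100 genes with a called difference in change are coloured by class, and lie away from the dashed line of equal difference; Lmna, Anxa2 and Csf2 stand far above it, and Ifng, Trpm6 and Derl3 below it.

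The number of calls depended on single libraries. Leaving out WT replicate 1 or 2 of 12 h gave 18 and 1 called genes, leaving out Zn4-/- replicate 1 or 2 of 12 h gave 7 and 21, leaving out WT replicate 1 or 2 of 24 h gave 4 and 3, and leaving out Zn4-/- replicate 1 or 2 of 24 h gave 63 and 450. With the summed Y-linked level as a covariate 7 genes were called, 6 of them among the 100, and without the 2 libraries of 12 h that held Y-linked transcripts but almost no Xist, 9 were called, 5 of them among the 100. No gene of the 100 changed sign in any of these fits. Zn4-/- replicate 1 of 24 h was above replicate 2 for 59 of the 83 genes with the higher change (71.1%), against 43% of all genes tested.

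Structural genes of the nucleus and cytoplasm gave the largest openings. Lmna encodes lamins A and C, which line the inner face of the nuclear envelope. Its level was 0.0581 and 0.134 RPKM in WT at 12 h, 0.242 and 0.47 in Zn4-/- at 12 h, 0.3 and 0.299 in WT at 24 h, and 60 and 17.2 in Zn4-/- at 24 h. The 2 Zn4-/- libraries of 24 h stood far above the other 6, and differed from each other more than 3-fold. The change was greater in Zn4-/- by 4.38 (SE 0.68; limma, Benjamini-Hochberg adjusted p = 0.0343), with no call between genotypes at 12 h (0.30) and a call at 24 h (4.68). The gene lies on the minus strand of chromosome 3, 88480147 to 88509956 in GRCm38.

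Vim encodes vimentin, the intermediate filament protein of many migrating and mesenchymal cells and of activated lymphocytes. It was at 5.29 and 3.48 RPKM in WT and 5.54 and 8.7 in Zn4-/- at 12 h, then at 31.6 and 31.8 in WT and 225 and 150 in Zn4-/- at 24 h. Here both genotypes rose, by 2.62 in WT and 4.54 in Zn4-/-, and the 24 h groups did not overlap. The difference of 1.91 (SE 0.35) was called, at an adjusted p of 0.046 by limma. Of the 12 tested genes of intermediate filaments and the nuclear lamina, Lmna and Vim were the 2 called. Both were markers given for the comparison, so this count is not independent support. Plec, which encodes the cross-linking protein plectin, had means of 7.29 and 6.12 RPKM at 12 h and 8.22 and 34.7 RPKM at 24 h in WT and Zn4-/-, and a difference in change of 2.08 that was not called. Lmnb1, the gene for the constitutive lamin B1, stood at -0.20, and the list's median was 0.26.

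Anxa2 encodes annexin A2, which binds membranes and actin in a calcium-dependent way. It was listed at 2.46 and 2.46 RPKM in WT and 1.6 and 2.29 in Zn4-/- at 12 h, and at 4.74 and 5.05 against 96.1 and 29.9 at 24 h. The 12 h groups lay within 1 RPKM of each other, while both Zn4-/- libraries of 24 h exceeded all others. Its difference in change was 3.46 (SE 0.59). S100a4, a small calcium-binding protein gene of the same list, went from at most 0.186 RPKM in every 12 h library to 0.351 and 0.18 in WT and 4.33 and 5.32 in Zn4-/-, a difference in change of 2.11 (SE 0.19; limma, adjusted p = 0.00595). Its Zn4-/- level at 24 h rested on 65 and 78 reads.

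Lgals1 encodes galectin-1, a secreted sugar-binding protein. It was already higher in Zn4-/- at 12 h, with 14.4 and 15.7 RPKM against 5.04 and 7.26 in WT, and rose in both genotypes, to 329 and 257 against 57 and 51.5 at 24 h. The groups were apart at both times, and the gap widened by 1.22 (SE 0.23). S100a13 took the other route: 1.54 and 2.44 RPKM in Zn4-/- against 5.24 and 6.58 in WT at 12 h, and 21 and 19.4 against 14.5 and 16 at 24 h. Its deficit of -1.22 at 12 h gave way to an uncalled 0.38 at 24 h.

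Over the 16 tested galectin, annexin and S100 genes, 15 had a positive difference in change, and the median was 0.87. Over all genes tested these were 50.3% and 0.00. Of the 16, 5 were called, all positive. Over all genes, the shares called for the change were 0.652% higher and 0.134% lower, beside this and the other list counts. The fifth called gene, Anxa7, is named after its value (0.81) was seen. Lgals1 was a marker given for the comparison, and the list was chosen with earlier results of these data known. Its counts are therefore not independent support. The list's median lay between 0.70 and 1.09 over the 19 alternative settings. S100a10, the partner of annexin A2, closed from -1.19 at 12 h to 0.17 at 24 h, but its difference in change of 1.37 was not called. Lgals3 (galectin-3) had a larger value, 2.05, and was not called either. Its replicates were 0.753 and 3.01 RPKM in WT at 12 h, a wider spread than in Lgals1.

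Cd44 encodes the hyaluronan receptor by which memory and activated T cells are told from naive ones. The cells had been sorted as CD44-low or negative before culture. At 12 h WT had 10.4 and 14.8 RPKM and Zn4-/- 9.16 and 8.96, and at 24 h WT had 19.2 and 18.2 and Zn4-/- 69.2 and 47.8. Zn4-/- thus went from just below both WT libraries to well above them, with a difference in change of 1.99 (SE 0.28; limma, adjusted p = 0.0279). It was the 1 called gene of 26 tested for adhesion and homing, a list with a median of 0.18.

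**Figure D2:**
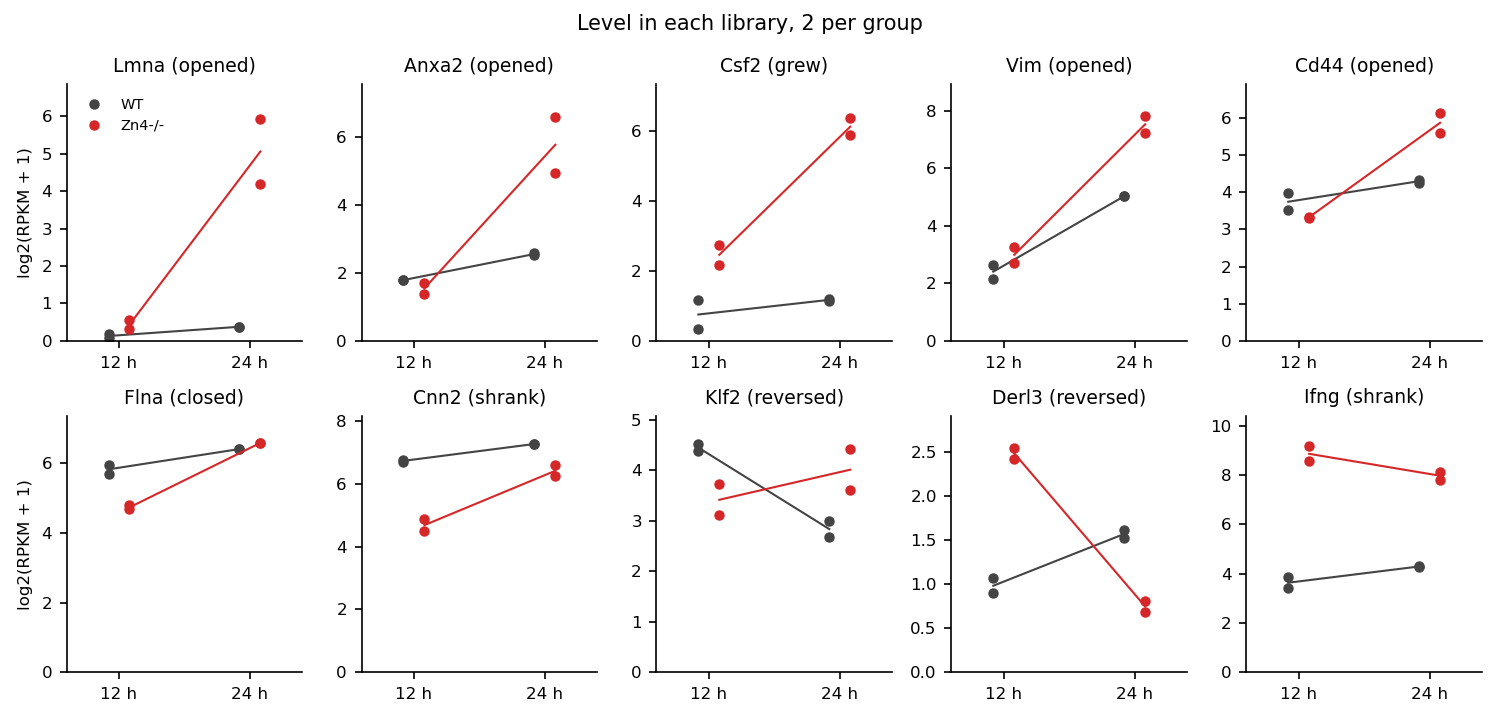
Level of 10 genes in each library on the log2(RPKM + 1) scale (y axis) at 12 h and 24 h (x axis); black points are WT and red points Zn4-/-, 2 libraries per group, and lines join group means. Lmna, Anxa2, Vim and Cd44 separate at 24 h, Flna comes together, and the lines of Klf2 and Derl3 cross.

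Many actin filament and cortex genes were lower in Zn4-/- at 12 h, and 3 of them, Flna, Cnn2 and Tpm4, were called for the change. Of 39 tested, 23 were lower and 1 higher in Zn4-/- at 12 h, against 8.28% and 4.85% of all genes tested. At 24 h 11 were lower and 3 higher, against 9.96% and 9.4%. The difference in change was positive for 38 of the 39, against 50.3% of all genes tested, and talin 1 (Tln1, -0.06) was the exception. The list's median was 0.32, against 0.00 over all genes. Actb of this list was a marker given for the comparison, and the list was chosen with earlier results of these data known. In 27 of the 39 all 4 differences between a 24 h and a 12 h library of Zn4-/- exceeded all 4 of WT, which held for 18.9% of all genes tested. The lower count at 12 h ranged from 9, without the 2 libraries of 12 h with Y-linked transcripts and almost no Xist, to 26, and the median of the difference in change from 0.26 to 0.41, over the 19 alternative settings.

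Flna encodes filamin A, which cross-links actin filaments into networks and tethers them to membrane proteins. It had 50.5 and 60.6 RPKM in WT against 24.4 and 26.6 in Zn4-/- at 12 h, and 83.4 and 83.2 against 94.7 and 93.9 at 24 h. The groups were apart at both times, but the genotype difference of -1.09 at 12 h was no longer called at 24 h (0.18), and the difference in change was 1.26 (SE 0.15; limma, adjusted p = 0.0244).

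Cnn2 encodes calponin 2, an actin-binding regulator of contractility. It was at 102 and 107 RPKM in WT and 21.4 and 28.3 in Zn4-/- at 12 h, and at 153 and 151 against 74.5 and 94.3 at 24 h. Zn4-/- stayed below WT at both times, while the gap narrowed from -2.05 to -0.85, a difference in change of 1.20 (SE 0.20). Tpm4, a tropomyosin gene, moved from 53 and 60.2 RPKM in WT against 33.5 and 33.9 at 12 h to 85 and 86.9 against 103 and 108 at 24 h. Its difference of -0.73 at 12 h closed to an uncalled 0.29.

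Actb, the gene for beta-actin and the most abundant of the list, had the same shape without a call on the change. It was at 1249 and 1430 RPKM in WT against 684 and 756 in Zn4-/- at 12 h, and at 1627 and 1637 against 1351 and 1538 at 24 h. The deficit was called at 12 h (-0.89) and not at 24 h (-0.18), but the difference in change of 0.71 (SE 0.28) had an adjusted p of 0.34 by limma, so that closing was not shown. Coro1a, which encodes the actin regulator coronin 1A, also narrowed, from -1.88 to -0.91, and was not called for the change (0.97). Several actin genes have near-identical pseudogenes, and Actg1 was listed at group means of 0.906 to 2.59 RPKM; how reads of such copies were shared out is not given in the sources used here.

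**Figure D3:**
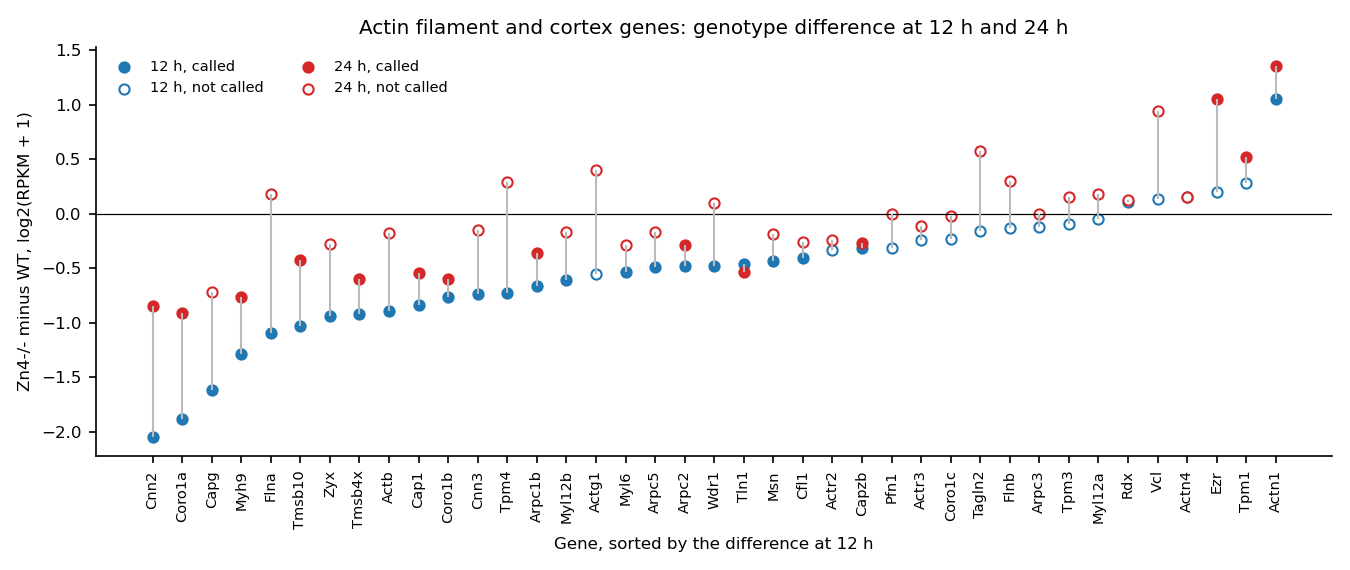
Zn4-/- minus WT difference of the 39 tested actin filament and cortex genes at 12 h (blue) and 24 h (red), on the log2(RPKM + 1) scale (y axis), with genes on the x axis sorted by the 12 h value; filled points are called and grey lines join the 2 times. Most blue points lie below 0, and the red point of 38 genes lies above its blue one.

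Of the 83 genes with the higher change, 16 closed and 4 shrank, each from a deficit of Zn4-/- at 12 h. Lsp1, Trpv2, Cd2 and Unc13d were among them. Lsp1, an actin-binding protein gene of leukocytes, had 35.1 and 47 RPKM in WT against 13.2 and 15.8 in Zn4-/- at 12 h, and 91.8 and 89.9 against 83.6 and 74.2 at 24 h. The WT libraries stayed above Zn4-/- at both times while the difference went from -1.43 to an uncalled -0.20. Trpv2, a cation channel gene, closed from -1.19 to 0.19, and Cd2, the adhesion receptor of T cells for CD48, from -1.13 to -0.24. Unc13d encodes Munc13-4, which primes cytotoxic granules for release. It shrank from -1.37 to -0.43.

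Promoter sequences are shown for 3 of these genes, Anxa2 and Cd44 as genes whose difference opened and Cnn2 as one of the actin list that caught up in part, with motif matches in capitals. The sequences are RefSeq's for GRCm38.p6, 5′ to 3′ on the gene's strand, and end where the annotated gene begins. They were searched on both strands, in the 150 bases before each start, for the Ikaros core TGGGAA, the AP-1 site TGACTCA and the CArG box bound by serum response factor. The Anxa2 stretch (chr9:69453533-69453619, plus strand) holds the AP-1 site on the opposite strand and the Ikaros core. The Cnn2 stretch (chr10:79988450-79988583, plus strand) holds a CArG box, and the Cd44 stretch (chr2:102901666-102901815, minus strand) holds none of the 3.
Anxa2: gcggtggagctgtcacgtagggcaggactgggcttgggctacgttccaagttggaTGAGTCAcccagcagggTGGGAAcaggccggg
Cnn2: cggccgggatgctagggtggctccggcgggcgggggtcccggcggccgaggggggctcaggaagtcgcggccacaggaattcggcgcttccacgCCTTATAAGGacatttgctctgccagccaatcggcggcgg
Cd44: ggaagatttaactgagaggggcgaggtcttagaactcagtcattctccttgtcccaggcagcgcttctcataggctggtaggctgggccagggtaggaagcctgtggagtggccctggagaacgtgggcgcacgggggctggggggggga

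Of 32851 RefSeq promoters, 13.1% held the Ikaros core, 2.8% the AP-1 site and 0.9% the CArG box. Among 10246 promoters of tested genes these were 11.9%, 1.8% and 0.7%. Promoters were found for 68 of the 100 called genes, 92 starts in all, and of these 15.2%, 4.3% and 3.3% held them. By class, the Ikaros core was in 9 of 38 starts of opened genes, 3 of 15 of grown, 2 of 12 of reversed, 0 of 19 of closed and 0 of 8 of shrunk genes. These are matches of letters in a short window, not sites of binding, and the classes hold few starts.

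Among the cytokine genes with a called difference in change, differences opened, grew or shrank. Csf2, which encodes the granulocyte-macrophage colony-stimulating factor, had 0.257 and 1.27 RPKM in WT and 3.51 and 5.77 in Zn4-/- at 12 h, and 1.29 and 1.23 against 81.9 and 58.6 at 24 h. Zn4-/- was above WT in every library at both times. The difference grew from 1.71 to 4.96, by 3.25 (SE 0.40; limma, adjusted p = 0.0244), and the WT value at 24 h rested on 25 and 28 reads against 1678 and 1171 in Zn4-/-. Csf2 lies on the minus strand of chromosome 11, 54247271 to 54249667 in GRCm38.

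Osm, the oncostatin M gene, opened: all 6 other libraries lay between 1.31 and 2.64 RPKM, and Zn4-/- at 24 h had 9.83 and 6.83. Penk, the precursor of the enkephalin peptides, grew from 1.22 to 3.16. Il1a (interleukin-1 alpha) opened from at most 0.35 RPKM in all 12 h libraries to 0.292 and 0.304 in WT and 4.87 and 13.4 in Zn4-/-, where the replicates stood far apart. Ifng, the interferon-gamma gene, took the opposite course.

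Ifng was at 13.4 and 9.7 RPKM in WT and 375 and 570 in Zn4-/- at 12 h, and at 18.7 and 18.5 against 224 and 278 at 24 h. It fell in Zn4-/- by 0.89 and rose in WT by 0.66, and the genotype difference shrank from 5.22 to 3.67. Of the 52 genes named by rule, it had the largest called genotype difference at 12 h. Outside those 52, Il3 (7.11) and Ccl1 (6.44) had larger called differences at 12 h, and neither was called for the change. Il2, the gene for the T cell growth factor interleukin-2, rose in both genotypes, from 1.08 and 2.2 RPKM to 6.05 and 6.54 in WT and from 35.9 and 30.3 to 116 and 88.6 in Zn4-/-. Its difference in change was 0.09 (SE 0.28), so that a large genotype difference of 3.72 at 12 h stood at 3.81 at 24 h. Among 21 tested cytokine genes 4 were called with the higher change and 1, Ifng, with the lower. The 4 were Csf2, Osm, Penk and Fasl, the last named after its value (1.06) was seen. Il1a was also called with the higher change, but this list does not hold it. Genotype calls in the list were 11 higher and 1 lower at 12 h, against 4.85% and 8.28% of all genes tested. At 24 h they were 13 and 2, against 9.4% and 9.96%, and the list's median difference in change was 0.36. The 11 became 7 without the 2 libraries of 12 h with Y-linked transcripts and almost no Xist.

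No chemokine gene of 8 tested was called for the change by limma or by limma-voom on reads, and 4 had an unadjusted p under 0.05, 2 in each direction. Their median of 0.12 was not stable in sign, between -0.39 and 0.62 over the 19 settings. The largest value was that of Ccl1, at -3.09, with 94.3 and 165 RPKM in Zn4-/- at 12 h and 8.8 and 26.9 at 24 h, against at most 0.731 in every WT library. Xcl1 fell in both genotypes, from 3995 and 4436 to 1394 and 1235 RPKM in WT and from 9674 and 9962 to 1298 and 1918 in Zn4-/-. It was called between genotypes at 12 h alone, and its difference in change of -0.96 was not called.

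Few cytokine receptor, feedback and transcription factor genes were called for the change, although more of them were called higher in Zn4-/- at 24 h than at 12 h. The shares over all genes tested, for each list count below, were 4.85% higher and 8.28% lower at 12 h, and 9.4% higher and 9.96% lower at 24 h. Of 38 tested effector and AP-1 factor genes, 7 were higher and 4 lower in Zn4-/- at 12 h, and 21 were higher and 1 lower at 24 h. Over the 19 alternative settings these 12 h counts ranged from 2 to 10 higher and 0 to 5 lower, and the higher count at 24 h from 14 to 22. For the change, 1 was called, 32 were positive, against 50.3% of all genes tested, and the median was 0.40, against 0.00. The called gene was Batf3, which encodes a leucine-zipper factor that pairs with Jun proteins. It had at most 0.0421 RPKM in WT at 12 h, 0.399 and 1.63 in Zn4-/- at 12 h, 0.521 and 0.694 in WT at 24 h, and 18.2 and 13.8 in Zn4-/- at 24 h. The groups were apart at both times. Fos, Atf3 and Bhlhe40 had positive values of 2.15, 2.02 and 1.51 that were not called, and in each of them the Zn4-/- replicates of 24 h stood far apart, at 23.1 and 9.29 RPKM for Fos, 131 and 64.5 for Atf3, and 246 and 117 for Bhlhe40.

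The STAT5 and cytokine feedback list went from 6 higher and 4 lower at 12 h to 13 higher and 1 lower at 24 h, of 21 tested, with a median difference in change of 0.34. At 12 h the counts ranged from 4 to 8 higher and from 0, without WT replicate 2 or Zn4-/- replicate 1, to 5 lower. Socs2, an inhibitor of cytokine receptor signalling, was called with Osm. It had 0.0605 and 0.0691 RPKM in WT and 0.205 and 0.293 in Zn4-/- at 12 h, and 0.424 and 0.392 against 3.77 and 4.77 at 24 h, a difference in change of 1.67 (SE 0.16). Its relative Socs1 had 55.7 and 56.2 RPKM in Zn4-/- at 24 h against 20.1 to 29.4 in the other 6 libraries, a value of 0.99 that was not called. Of 26 cytokine receptor genes, Il10ra was the 1 called: the other 6 libraries held 1.38 to 2.52 RPKM and Zn4-/- at 24 h 9.29 and 6.5. Genotype calls over those 26 went from 3 higher and 1 lower to 10 higher and 3 lower. The 10 became 4 and 5 without WT replicate 2 or 1 of 24 h, 5 without Zn4-/- replicate 1 of 24 h and at most 13, and the lower count at 12 h ranged from 0 to 4.

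Ifitm3, an interferon-inducible gene whose membrane protein blocks virus entry, had 0.243 and 0.618 RPKM in WT, 2.57 and 3.91 in Zn4-/- at 12 h, and 1.22 and 0.729 against 37.6 and 42.2 at 24 h. All Zn4-/- libraries exceeded all WT libraries, and the difference grew by 2.82 (SE 0.29; limma, adjusted p = 0.00807). Of a list of 36 tested interferon-stimulated genes, which does not hold Ifitm3, 14 were lower and 1 higher in Zn4-/- at 12 h, and 8 were lower and 4 higher at 24 h. The 14 became 4 without the 2 libraries of 12 h with Y-linked transcripts and almost no Xist, 8 without Zn4-/- replicate 1 and 9 without WT replicate 2 of 12 h, and at most 16. The 8 became 2 without either WT library or Zn4-/- replicate 1 of 24 h, and at most 10. None of these 36 was called for the change by limma or by limma-voom on reads, 9 with a positive and 2 with a negative value had an unadjusted p under 0.05, and the median was 0.25. Igfbp7, a secreted growth factor-binding protein gene, opened by 2.03 (0.99 on reads, not called), from at most 0.0494 RPKM in WT at 12 h to 0.883 and 1.22 in WT and 7.15 and 9.17 in Zn4-/-, and Cyr61, a matricellular protein gene, grew by 1.92.

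Among the 14 genes whose difference reversed were Klf2 of the naive-state list and Hmgcs1 of the sterol list, each the 1 reversed gene of its list. Klf2 encodes a quiescence factor that keeps naive T cells circulating. It fell in WT from 19.8 and 22 RPKM at 12 h to 6.98 and 5.41 at 24 h, while Zn4-/- had 7.66 and 12.2 at 12 h and 20.4 and 11.2 at 24 h. Zn4-/- was below WT at 12 h (-1.03) and above it at 24 h (1.17), and the difference in change was 2.21 (SE 0.37; limma, adjusted p = 0.0389). The change within Zn4-/- of 0.59 was not called. Of 31 naive-state genes tested, 3 were called with the higher change (Klf2, Treml2 and Elf4). Of the same genes 24 were positive, against 50.3% of all genes tested, and their median was 0.60, against 0.00. Their genotype calls went from 0 higher and 7 lower at 12 h, against 4.85% and 8.28% of all genes tested, to 7 higher and 3 lower at 24 h, against 9.4% and 9.96%. The 7 lower at 12 h ranged from 0, without the 2 libraries of 12 h with Y-linked transcripts and almost no Xist, and 1, without WT replicate 2 or Zn4-/- replicate 1 of 12 h, to 10. The 7 higher at 24 h ranged from 3, without WT replicate 2 of 24 h, to 10. Treml2 held 1.97 to 3.04 RPKM in the other 6 libraries and 7.19 and 9.79 in Zn4-/- at 24 h. Ccr7, which guides T cells to lymph nodes, had 1275 and 466 RPKM in Zn4-/- at 24 h, and its value of 1.15 was not called.

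Hmgcs1, the gene for the synthase at the head of the mevalonate pathway, fell in WT from 52.1 and 66.7 to 34.8 and 35.3 RPKM and rose in Zn4-/- from 37.8 and 40.3 to 49.8 and 50.5. The groups were apart at both times in opposite order, with a difference in change of 1.09 (SE 0.16). It was the 1 called gene of 24 tested for sterol and fatty acid synthesis. Of these 21 were positive, against 50.3% of all genes tested. Their median was 0.50, between 0.41 and 0.58 over the 19 settings, against 0.00 over all genes. This list, the naive-state list and the effector and AP-1 list were chosen with earlier results of these data known. Their counts are therefore not independent support. Genotype calls in the sterol list went from 0 higher and 8 lower at 12 h to 1 and 2 at 24 h. The 8 lower calls at 12 h ranged from 2, without WT replicate 2 or Zn4-/- replicate 1 of 12 h, to 14. Tap2, a subunit of the peptide transporter for class I presentation, reversed from -0.68 to 0.49, and Pfkp, a phosphofructokinase gene, from -0.32 to 0.48. Srgn, the granule proteoglycan serglycin, fell in both genotypes and reversed from -0.32 to 0.37.

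**Figure D4:**
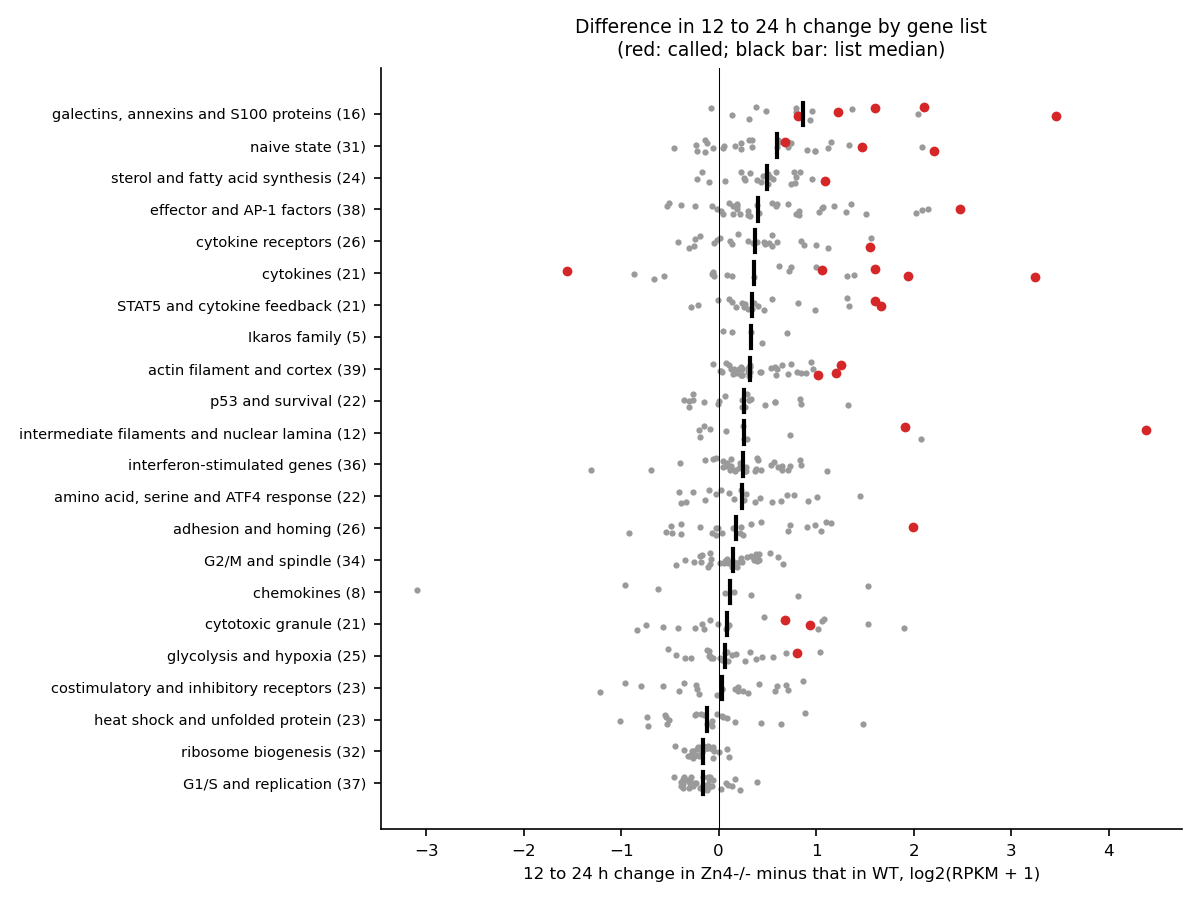
Difference in 12 to 24 h change, Zn4-/- minus WT, on the log2(RPKM + 1) scale (x axis), for the tested members of 22 gene lists (y axis, number tested in brackets); red points are called and black bars are list medians. Galectins, annexins and S100 proteins have the highest median (0.87), and G1/S and ribosome biogenesis genes lie to the left of 0 (-0.16 each).

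The genes with the lower change in Zn4-/- were fewer and belonged to no list apart from Ifng. Derl3 encodes a membrane protein of the endoplasmic reticulum that takes part in the removal of misfolded proteins. It had 0.863 and 1.1 RPKM in WT and 4.36 and 4.87 in Zn4-/- at 12 h, and 2.07 and 1.88 against 0.614 and 0.749 at 24 h, on 21 to 179 reads per library. The order of the genotypes was opposite at the 2 times with no overlap at either. Its difference in change was -2.33 (SE 0.18; limma, adjusted p = 0.00348), and it was the 1 gene of the 100 that stayed called whichever of the 8 libraries was left out.

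Pou2af1, a coactivator of octamer-binding factors best known from B cells, fell in Zn4-/- from 81.2 and 76.3 to 13.2 and 21.7 RPKM, while WT had 53.8 and 55.8 and then 42.5 and 41.4. The difference of -1.26 at 24 h was called and that of 0.51 at 12 h was not. The summed B cell and class II markers were lower in Zn4-/- than in WT at both times, 86.6 and 84.2 against 153 and 139 RPKM at 12 h and 125 and 189 against 265 and 266 at 24 h. Most of that sum was Ighm, at 148 and 133 against 71.4 and 71.1 RPKM at 12 h and not called at either time. Cd79b was called lower in Zn4-/- at 12 h (-1.02) and at 24 h (-1.52). It had 6.62 and 6.53 RPKM in WT against 1.56 and 1.73 in Zn4-/- at 24 h. Cd74 was called higher in Zn4-/- at 12 h alone, with 14.6 and 12.1 against 3.82 and 2.89 RPKM. The part of these genes in the Pou2af1 result was not tested. Lrmp, a lymphoid membrane protein gene, rose in WT from 55 and 48.4 to 98.8 and 97.1 RPKM and fell in Zn4-/- from 81.4 and 86.8 to 43.4 and 64.2. Trpm6, a magnesium channel gene, was at most 0.127 RPKM in WT, and in Zn4-/- fell from 12.4 and 14.1 to 5.49 and 4.64, a difference that shrank from 3.70 to 2.49.

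A few genes rose in WT and stayed low in Zn4-/-, so that a deficit grew. Nucb2, the gene for nucleobindin 2, had 3.94 and 3.76 RPKM in WT at 24 h against 0.373 and 0.383 in Zn4-/-, after 0.859 and 1.28 against 0.371 and 0.205 at 12 h. Pik3ap1, an adaptor gene for phosphoinositide 3-kinase, went from 3.95 and 4.55 to 7.9 and 8.92 RPKM in WT and from 1.52 and 1.94 to 1.22 and 1.33 in Zn4-/-. The groups did not overlap at either time in either gene. BC094916 had the same course, at -1.84 and then -2.89. Gm12039, with the lower change, and Gm8812, with the higher, have names of predicted genes that are often copies of others, and their values are uncertain for that reason.

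Growth and division genes had small differences in change in this interval. No gene was called among 37 tested for G1/S and replication, 34 for G2/M and spindle and 32 for ribosome biogenesis, by limma or by limma-voom on reads, and 1, 2 and 1 of them had an unadjusted p under 0.05. Their medians were -0.16, 0.15 and -0.16. Over the 19 settings the G1/S median lay between -0.36 and 0.00, and the G2/M median between -0.03 and 0.30. That of ribosome biogenesis lay between -0.23 and -0.10. A positive difference in change was held by 7 of the 37 G1/S genes and 24 of the 34 G2/M genes, against 50.3% of all genes tested. Both genotypes raised nearly all division genes: 34 of the 37 G1/S genes rose in WT and 33 in Zn4-/-, and 32 and 33 of the 34 G2/M genes. Of ribosome biogenesis genes 15 fell in WT and 27 in Zn4-/-, and 3 of the 32 had a positive difference in change. The counts over all genes for these 24 h minus 12 h changes were 2169 higher (17%) and 883 lower (6.94%) in WT, and 2875 higher (22.6%) and 1398 lower (11%) in Zn4-/-. Median-ratio scaling made these 1707 and 1449 in WT, and 2283 and 2060 in Zn4-/-, and quantile normalization 1566 and 1503, and 2007 and 2379. Quantile normalization moved the median change over all genes from 0.04 to -0.07 in WT and from 0.05 to -0.09 in Zn4-/-.

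The heat shock and unfolded protein list of 23 tested genes had 6 higher in Zn4-/- at 12 h (0 to 7 over the settings) and 3 at 24 h (0 to 5), none lower at either time in that fit and none called for the change by limma or limma-voom, with 3 higher and 7 lower at an unadjusted p under 0.05 and a median of -0.12. Amino acid and ATF4 response genes, 22 tested, went from 3 higher and 0 lower to 10 higher and 1 lower with a median of 0.24. None of them was called for the change by limma or limma-voom, and 8, all positive, had an unadjusted p under 0.05. Atf4 itself had 270 and 276 RPKM in Zn4-/- against 211 and 234 at 12 h, and 415 and 318 against 189 and 189 at 24 h. The 23 tested costimulatory and inhibitory receptor genes had no call for the change by limma or limma-voom, 1 higher and 5 lower at an unadjusted p under 0.05, and a median of 0.03. The 5 genes of the Ikaros family had no call for the change either, 2 higher at an unadjusted p under 0.05, and were called higher in Zn4-/- in 0 cases at 12 h and 4 at 24 h, a count that ranged from 1, without either WT library of 24 h, to 5. Among 21 cytotoxic granule genes Unc13d and Srgn were called, with a list median of 0.09, and Gzmb, the granzyme B gene, had 84.6 and 39.2 RPKM in WT against 199 and 214 at 12 h, and 109 and 114 against 1561 and 836 at 24 h, a value of 1.53 that was not called. Of 25 glycolysis and hypoxia genes Pfkp was called, and the list's median was 0.07. Of 22 p53 and survival genes none was called by limma or limma-voom, 5, all positive, had an unadjusted p under 0.05, and the median was 0.26.

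The classes called differed between the log2(RPKM + 1) fit and a fit on reads. Whole reads were worked out from the RPKM steps and tested by limma-voom, which weighs each value by its precision and sets genes on a ratio scale down to the lowest levels. It called 43 genes, of which 40 were among the 100. By class, these 40 were 9 of the 41 opened, 1 of the 18 grown, 2 of the 7 shrunk, 15 of the 20 closed and 13 of the 14 reversed. Of the 37 called genes with a mean under 1 RPKM in WT at 12 h, 2 were called on reads, and of the other 63, 38 were. Among the genes called on both scales were Cd44, Pou2af1, Treml2, Flna, Cnn2, Lsp1, Klf2, Hmgcs1 and Derl3. Lmna (4.90 on reads), Anxa2 (3.81), Vim (1.81), Csf2 (2.96) and Lgals1 (1.15) kept values of like size on reads and were not called there. Batf3 had 0.37 on reads and Igfbp7 0.99, neither called there. Since the fit on reads changes the scale and the weights together, their parts cannot be told apart.

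**Figure D5:**
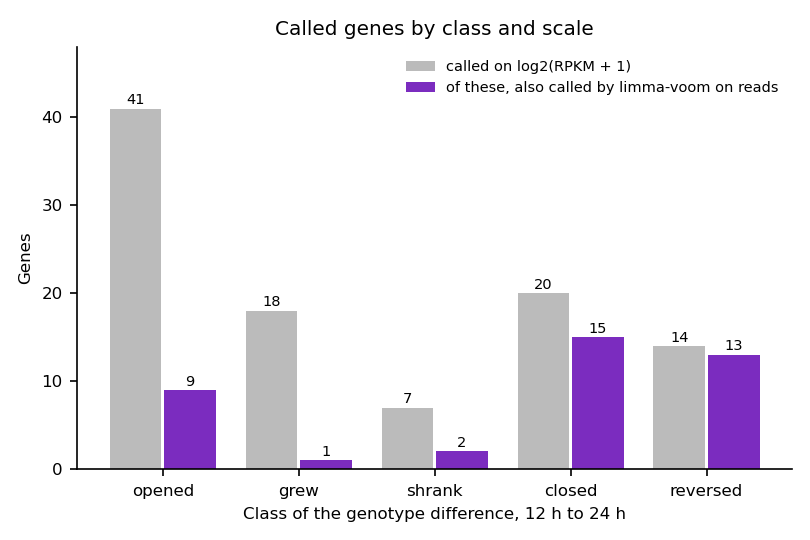
Number of genes (y axis) called for a difference in 12 to 24 h change on the log2(RPKM + 1) scale (grey) and, of these, also by limma-voom on recovered reads (purple), by class of the genotype difference (x axis). Of 34 closed and reversed genes 28 were called on both scales, and of 59 opened and grown genes 10 were.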

How the data were processed

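The authors deposited a single table of RPKM values for 12 libraries. Per the submitters' processing notes, TopHat2 2.0.12, HTSeq 0.6.1 and the mm10 (GRCm38) build were used; their settings and the gene annotation are not given in the sources used here. In each gene of the deposited table at least 1 group has a mean of 1 RPKM or more. Genes had to reach 1 RPKM in 2 or more libraries to be tested, which 12726 of 12885 symbols did; of 7 symbols on more than 1 line the first line was used. limma 3.58.1 in R 4.3.3 was fitted to log2(RPKM + 1) with 1 mean per group over all 12 libraries (6 residual degrees of freedom), empirical Bayes with a mean-variance trend, 2-sided tests and Benjamini-Hochberg adjustment at 0.05. Fold changes on this scale understate those of low genes. The fit was tested on simulated data.

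Whole reads were worked out from the RPKM steps within 0.02 reads for 100% of genes. Coordinates are GENCODE M21's. Named genes were the 5 markers given for the comparison (Csf2, Lmna, Vim, Lgals1, Actb), the 15 largest called values in each direction, the 5 largest of each class and up to 4 called genes of each list, 52 in all, with uncalled examples of a list. Not all of them are reported here. Members and lists were chosen with earlier results of these data known.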

Additional observations from a re-analysis of the deposited data

Results flagged for a closer look

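The difference in 12 to 24 h change between Zn4-/- and WT was called by limma for 100 genes, by the test of the difference itself. A Benjamini-Hochberg cut at 0.05 allows some false calls, so it does not establish each single gene. In 11 of the 100 genes both genotypes' changes were called and went in opposite directions. Rising in WT and falling in Zn4-/- were Derl3 (-2.33), Lrmp (-1.57), Ifng (-1.55), Gm12039 (-1.33), Gnb5 (-1.16) and Sec24d (-1.11), a gene of the coat that carries cargo out of the endoplasmic reticulum. Falling in WT and rising in Zn4-/- were Slc1a4 (1.50), a transporter of neutral amino acids, Gm6175 (1.46), Hmgcs1 (1.09), Antxr2 (0.90) and Cd2 (0.89). Slc1a4 had 3.85 and 4.51 RPKM in WT against 4.77 and 4.48 in Zn4-/- at 12 h, and 2.39 and 1.99 against 10.9 and 7.11 at 24 h. Gnb5 and Sec24d closed from excesses of 0.98 and 0.75 at 12 h. Gm6175 and Gm12039 carry names of predicted genes and are uncertain.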

How the results depend on the processing

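Of the 100 genes called for the difference in change, none was called under all 19 alternatives. Derl3 was called in 17 of 18 in which it was tested, Ifitm3 and Igfbp7 in 15 of 19. The count was 0 with a pseudocount of 0.1 RPKM (1407 genes at an unadjusted p under 0.05), 52 with quantile normalization, 10 with only the libraries of 12 h and 24 h, 7 with the Y-linked level as covariate, 43 by limma-voom on reads, 9 without the 2 libraries of 12 h with Y-linked transcripts and almost no Xist (chosen after seeing the data), and 1 to 450 leaving out 1 library each. Replicate numbers are shared between groups but no label says that they pair the libraries, and the replicate differences of 2 groups correlated at -0.12 to 0.19 across genes; with the number as a block 49 genes were called, 47 of them among the 100. Genotype calls at 12 h became 892 with the Y-linked covariate, 446 without those 2 libraries and 743 to 1809 leaving out 1 library; at 24 h they became 1061 to 2591. The 24 h minus 12 h calls became 1511, 1201 and 1347 to 3246 in WT, and 847, 2007 and 2424 to 3943 in Zn4-/-. The cause was not tested. Leaving out libraries leaves fewer samples, and the counts fell in some of these fits and rose in others. For the 52 named genes, 561 of the single-gene values kept their direction and lost the call, 418 kept both, and none reversed. Tmem176a (-1.21) and Pxdc1 (-1.36), outside that rule, changed sign by limma-voom. No filter, a filter of 5 RPKM, median-ratio scaling and robust moderation gave 86 to 102 calls. With 2 libraries per group and low levels in WT, as for Lmna (6 to 36 reads), depth limits the ratio.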
